A study of Mus musculus with 12 samples.

Results

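The 1142 chromatin regions described here lost accessibility when mouse myeloid progenitors were given 3 drugs together. They are the regions of the authors' deposited table of the combination against its solvent control whose listed level was lower in the combination. The table listed 7955 regions with a false discovery rate of 0.05 or less, so the closed regions were 14.4% of the list, and the other 6813 were opened. The number of regions the authors tested was inferred from the ranks of the listed p-values as about 53229, of which the closed regions made up 2.15%; nothing is read from that share, since the same contrast chose them. The regions were thus chosen by the Combo and Vehicle levels themselves, so every value of the combination or of its control below is a description and is not tested.

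The cells were granulocyte-monocyte progenitors from the bone marrow of C57BL6 mice, carrying HOXA9 fused to the estrogen receptor (ER-HOXA9), and accessibility was measured by ATAC-seq. All 12 libraries came from cells grown with stem cell factor and estradiol, and there were 6 groups of 2 biological replicates. Day0 cells were sampled at day 0 without treatment, and the other groups at day 2. Vehicle cells received DMSO. LSD1i cells received GSK-LSD1 at 200 nM, which inhibits the lysine demethylase LSD1. 6MP cells received 5 µM mercaptopurine, CER cells received 5 µM cerulenin, and Combo cells received all 3 drugs at these doses. What separated the replicates (culture or animal) and whether the cells were 1 clone is not given in the sources used here, so p-values measure only the spread between these samples.

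HOXA9 is a homeodomain transcription factor that keeps myeloid progenitors immature, and when it is fused to the estrogen receptor its activity depends on estradiol. LSD1 removes methyl groups from histone H3 at enhancers and promoters, where it acts with the CoREST and GFI1 repressors, and its inhibition is known mainly for opening chromatin of differentiation genes in myeloid cells. Cerulenin blocks fatty acid synthase, and mercaptopurine is a purine analogue that enters nucleotide pools after conversion to thioguanine nucleotides. ATAC-seq reads out where a transposase can reach the DNA. In bulk cells, a region open in fewer cells and a region less open in each cell cannot be told apart.

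The promoters of 4 genes are shown to give the sequence that lay under closed regions. They were taken from the 19 protein-coding RefSeq promoter windows with at least 150 bases inside a closed region. Of these 19, Rnase11, Lgals2 and Btnl1 had the lowest adjusted p in LSD1i libraries, and F2rl2 was the 1 called lower in CER than in 6MP libraries. Each line holds the 250 bases before the RefSeq transcript start (GRCm38.p6, the mm10 assembly), written 5′ to 3′ in the direction of the gene, and all 250 lie inside the closed region. Capitals mark matches on either strand to short motifs of 5 factor families, CNGGAAGT for ETS, TGTGGTT for RUNX, AGATAA for GATA, TTNNGCAA for C/EBP and TGANTCA for AP-1.
Rnase11, chr14:51050164-51050413, minus strand: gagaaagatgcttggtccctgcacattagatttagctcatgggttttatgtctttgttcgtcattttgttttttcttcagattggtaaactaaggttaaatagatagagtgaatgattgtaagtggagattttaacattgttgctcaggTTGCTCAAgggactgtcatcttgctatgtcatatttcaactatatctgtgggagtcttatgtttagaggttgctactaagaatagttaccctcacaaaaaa
Lgals2, chr15:78855530-78855779, minus strand: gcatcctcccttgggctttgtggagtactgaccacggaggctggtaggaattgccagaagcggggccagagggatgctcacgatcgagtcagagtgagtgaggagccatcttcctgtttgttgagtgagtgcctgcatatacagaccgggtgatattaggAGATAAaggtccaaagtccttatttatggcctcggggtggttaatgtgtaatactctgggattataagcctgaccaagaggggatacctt
Btnl1, chr17:34376882-34377131, plus strand: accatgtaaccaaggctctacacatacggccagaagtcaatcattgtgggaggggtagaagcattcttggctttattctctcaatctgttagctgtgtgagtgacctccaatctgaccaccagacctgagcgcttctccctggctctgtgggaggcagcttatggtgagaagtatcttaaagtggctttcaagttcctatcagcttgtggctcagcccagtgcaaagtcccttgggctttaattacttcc
F2rl2, chr13:95696670-95696919, plus strand: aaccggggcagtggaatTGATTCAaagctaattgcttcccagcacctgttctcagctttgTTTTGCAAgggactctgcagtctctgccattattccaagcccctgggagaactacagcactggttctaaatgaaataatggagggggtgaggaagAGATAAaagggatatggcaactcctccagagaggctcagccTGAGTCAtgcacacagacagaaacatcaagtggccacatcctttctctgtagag
The Rnase11 sequence held a C/EBP match and the Lgals2 sequence a GATA match. The F2rl2 sequence held 1 GATA match, 1 C/EBP match and 2 AP-1 matches, and none of the 5 motifs was written in the Btnl1 sequence. A match is a string of letters and does not show binding.

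RefSeq promoter windows, 250 bases before to 50 bases after a transcript start, were set against the closed regions. At least 150 bases of 33 windows lay inside a closed region, 19 of them of protein-coding genes. These windows were poor in CpG, the dinucleotide that is dense in the promoters of widely used genes. Their median was 4 CpG, against 21 in the 12875 windows that overlapped a called peak in both Vehicle libraries and 7 in all 32817 windows. Fewer than 5 CpG were present in 54.5% of the windows under closed regions, in 8.11% of those open in Vehicle and in 38.1% of all. The GC box GGGCGG was present in 18.2% of the windows under closed regions, in 63.2% of those open in Vehicle and in 35.6% of all. C/EBP letters were found in 6 of the 33 windows (18.2%, against 8.28% of those open in Vehicle and 10.8% of all), and RUNX letters in 4 (12.1%, against 4.09% and 5.27%). AP-1 letters were also found in 4 (12.1%, against 5.04% and 7.81%), as were GATA letters (12.1%, against 6.04% and 11.2%). ETS letters were in 3 windows (9.09%, against 14.8% and 9.53%). With 33 windows these shares rest on few promoters, and they are given without a test.

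Peak lists held 42651 to 56398 peaks per library and joined into 73156 union regions. Summit heights were recovered from the peak statistics and are given as multiples of the library's background after all libraries were put on one median, so that the median region called in all 12 libraries stood at 30.3 in each. Before that scaling the median summit was 16.9 times background in 6MP replicate 1 and 23.0 times in CER replicate 2, against 28.3 to 42.7 in the other 10. At the RefSeq start windows of progenitor markers, 7 of the 9 genes with a window had a called peak in all 12 libraries, while Elane and Prtn3 had none. Peaks were called in all 12 libraries at the windows of 1 of 7 T and NK cell genes, 2 of 6 erythroid genes and 2 of 8 mast cell, basophil and eosinophil genes, and in no library at those of 2 stromal and endothelial genes. The counts were 2 of 3 for B cell, 3 of 4 for megakaryocyte, 2 of 5 for dendritic cell, 5 of 13 for mature neutrophil and 5 of 10 for monocyte and macrophage genes. The folds of the authors' deposited table of 6MP against Vehicle did not follow the heights of the libraries so labelled (r = -0.23 over 18097 regions), whereas those of the Combo and LSD1i tables did (r = 0.97 and 0.96 over 4893 and 18240 regions). That table is not used here. The libraries labelled 6MP are used in the comparisons below, which rest on that label. The cause of the disagreement was not tested.

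The log2 folds of the closed regions in the authors' deposited table were modest, with a median of -0.78 and a range of -2.20 to -0.48. A fold of -1 or less was listed for 267 of them (23.4%), whereas 48.5% of the opened regions had a fold of 1 or more, around a median of 0.98. The median listed level was 7.59 in Combo and 8.41 in Vehicle, on the authors' log2 scale of normalised reads. At the weak end, the authors' deposited table gave -0.49 near Mir6931 and in Ltbp3 and -0.48 near Gm26141. The first listed regions on the other side of zero were at Trdmt1 with 0.47 and at Trio and Gfi1 with 0.48 each. The closed regions had a median width of 838.5 bases, and none shared a union region with an opened one.

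A larger share of closed than of opened regions lay in and around genes, given here without a test. Promoters, which the authors' annotation extends to 3 kb from a transcript start, took 344 of them (30.1%, against 21.2% of the opened), and 169 of these lay within 1 kb. Introns held 390 (34.2%, against 35.1%), and 135 of these were first introns (34.6%, against 35.4%). Exons held 65 (5.69%, against 2.99%) and 3′ UTRs 44 (3.85%, against 1.76%). Distal intergenic sequence held 264 (23.1%, against 37.3%). The regions carried 1031 gene symbols, and 65.9% were assigned to protein-coding genes, against 52.2% of the opened. The symbol is the gene with the nearest start, which can differ from the gene the region lies in.

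**Figure D1:**
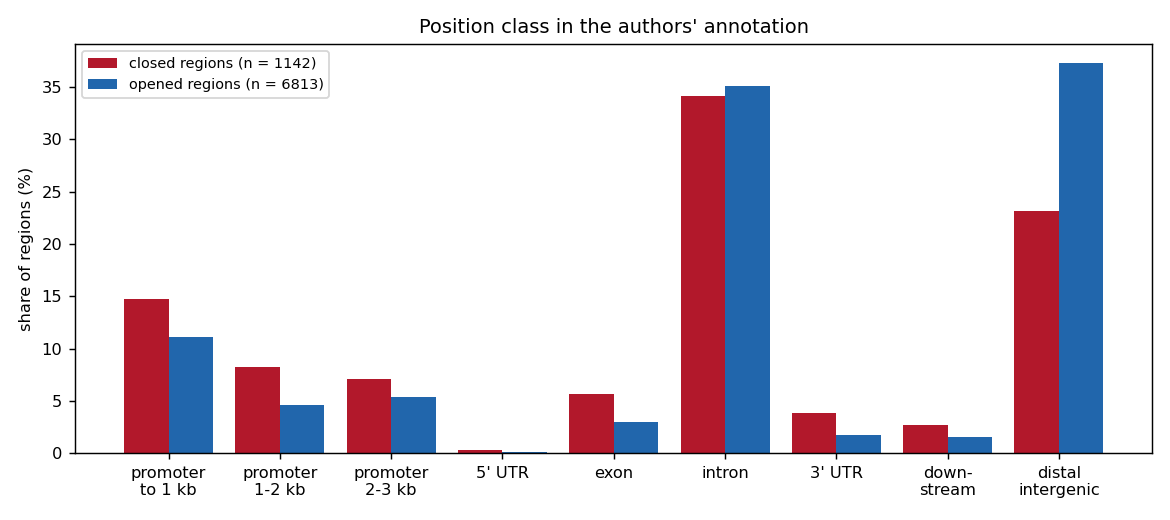
Share of the 1142 closed and 6813 opened regions, in percent, in each position class of the authors' annotation. Closed regions exceed opened ones in each promoter band, in exons and in 3′ UTRs, and fall below them in distal intergenic sequence (23.1% against 37.3%).

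Fewer closed regions lay near a start when RefSeq starts were used in place of the authors' annotation. Only 61 closed regions (5.34%) overlapped the 1 kb on either side of a RefSeq start of the promoter table, which does not hold every gene. The share was 5.62% of opened regions, 15.8% of all union regions and 22.6% of the 46057 regions called in both Vehicle libraries. Another closed region lay within 10 kb of 115 closed regions (10.1%). An opened region lay within 50 kb of 260 (22.8%), and the median distance to the nearest opened region was 120804 bases. Chromosome 11 held 9.98% of the closed regions and 7.39% of the union regions, and chromosome X held 0.525% and 2.14%.

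Most closed regions still had a called peak in each library. By library, a peak was called at 89.7% and 75.7% of them in Day0, at 99.8% and 100% in Vehicle, at 67.5% and 78.0% in LSD1i, at 74.2% and 85.5% in 6MP, at 85.0% and 66.1% in CER and at 69.1% and 70.1% in Combo. The Vehicle shares follow from the choice of regions. These shares moved with how much was called in a library, since 57.1% and 61.7% of all union regions were called in 6MP and 68.2% and 56.9% in CER, against 67.7% and 75.5% in LSD1i and 74.7% and 74.9% in Combo. Closed regions were called more often than union regions in each Day0, 6MP and CER library and less often in both Combo libraries. In LSD1i replicate 1 they were called slightly less often and in replicate 2 slightly more often. The choice of regions favours this order. It left 1140 of the 1142 closed regions with a peak in both Vehicle libraries, where 46057 of the 73156 union regions had one. It also required a low Combo level, so the order is a description. Opened regions showed other shares, with 99.9% in each Combo library, 84.7% and 91.6% in LSD1i and 57.8% to 70.0% elsewhere.

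**Figure D2:**
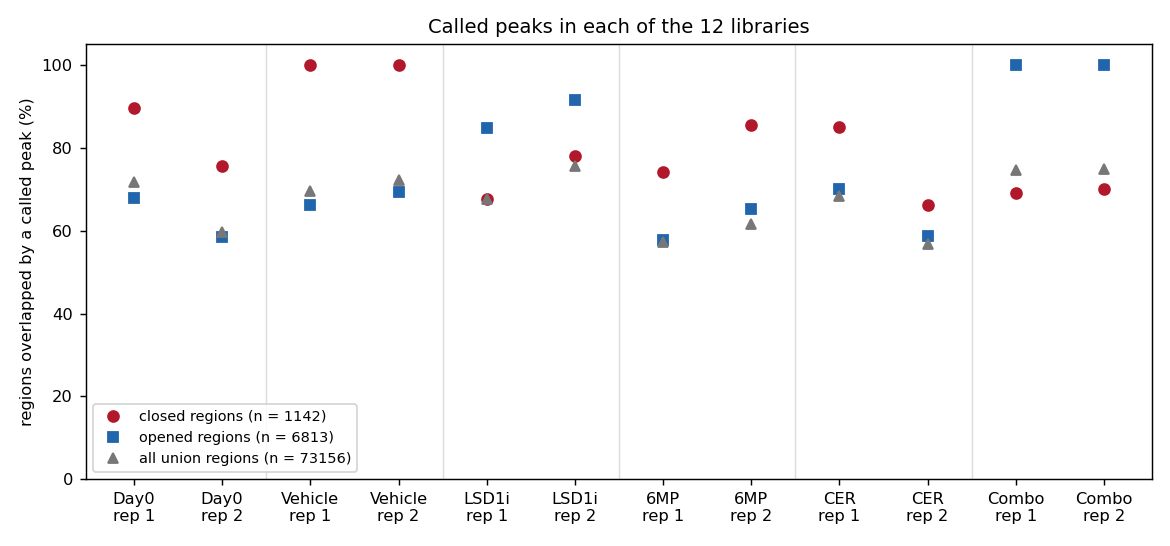
Percent of closed, opened and all union regions overlapped by at least 1 base of a called peak, for each of the 12 libraries. Closed regions sit above the union regions in all Day0, Vehicle, 6MP and CER libraries and below them in both Combo libraries. The choice of regions by Vehicle and Combo levels favours this order.

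A peak was called in all 12 libraries at 551 of the closed regions (48.2%) and in 4 or fewer at 119. Of all 73156 union regions, 33368 were called in all 12. In Combo, 703 were called in both libraries, and 439 (38.4%) lacked a peak in at least 1. A missing call does not mean that reads were absent. No peak was called in either Combo library at 255 and in either LSD1i library at 214, against 153 for CER, 129 for 6MP and 93 for Day0. At 152 regions a peak was called in both Vehicle libraries and in none of the LSD1i and Combo libraries. Peaks were confined to the Vehicle libraries at 30 regions. Apart from the count for all 12 libraries, these counts are given without a matching count over all union regions. A single library had a peak at 56.9% to 75.5% of all union regions, so the order of the groups is a description.

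Where a height could be read in all 12 libraries, at 558 union regions holding closed regions, median heights stepped down from Vehicle to Combo. The median height was 21.4 and 21.2 times background in the Day0 libraries, 23.0 and 24.7 in Vehicle, 22.9 and 22.4 in 6MP, 19.1 and 18.7 in CER, 16.5 and 16.8 in LSD1i and 13.5 and 12.6 in Combo. The LSD1i and CER medians fell below those of Day0 and 6MP and above those of Combo, without overlap between groups. In Day0, which the choice of regions did not use, the closed regions were thus lower than the median region (30.3). Relative to Vehicle, which is high by the choice of regions, the median log2 difference was -0.13 in Day0, -0.11 in 6MP, -0.33 in CER, -0.51 in LSD1i and -0.80 in Combo. Combo was below LSD1i at 496 of the 558 regions, with a median log2 difference of -0.30. Combo is low by the choice of regions, which favours this difference, so it is a description.

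**Figure D3:**
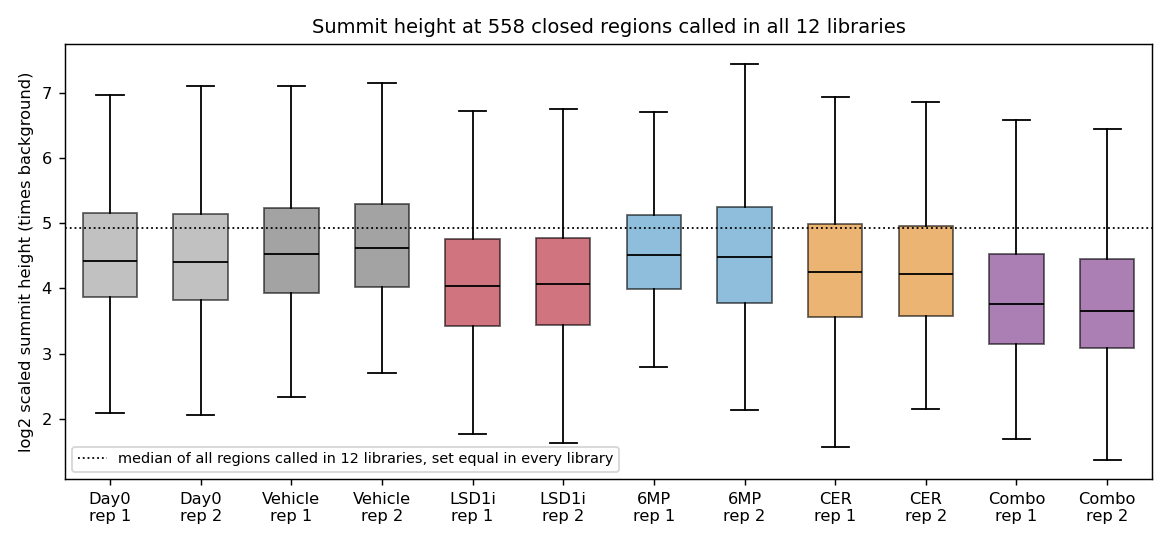
Log2 scaled summit height at the 558 regions with a called peak in each library (box, quartiles and median; whiskers, 1.5 times the quartile range; points beyond not drawn). The dotted line is the median of all regions called in 12 libraries, and the boxes step down from Day0, Vehicle and 6MP to CER, LSD1i and Combo.

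Whether LSD1 inhibition alone lowered the same regions was tested in the 8 libraries that the choice did not use. LSD1i was compared with the mean of Day0, 6MP and CER by limma over the 33563 union regions called in all 8 libraries, with Benjamini-Hochberg adjustment over all of them and a threshold of 0.05. These held 583 union regions with 586 closed regions, and the other 556 closed regions were not tested because a peak was missing in at least 1 library. Of the 583, 194 were lower in LSD1i (33.3%), where 12.9% of all tested regions were lower. Only 3 were higher (0.515%), where 9.05% of all tested regions were higher. The median log2 difference was -0.32 over the closed regions, -0.07 over all regions and 0.41 over the opened ones, and it was below zero at 513 of the 583 (88.0%, against 59.1% of all regions). These calls rest on a common median for all libraries. Scaled by depth alone, 2 were lower (0.343%, against 0.0328% of all regions) and 0 higher (against 1.02%). The median of all regions then moved to 0.09 and that of the closed regions to -0.15.

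The count also depended on single libraries, with 93 lower without LSD1i replicate 2 (15.9%, against 3.76% of all regions) and 102 without LSD1i replicate 1 (16.3%, against 5.87%). The names of the peak files end in a letter for some libraries, whose meaning is not given in the sources used here, and both LSD1i libraries carry none. Within the 4 tested libraries without a letter, LSD1i replicates 1 and 2 against 6MP replicate 1 and CER replicate 2, 77 of 602 closed regions were lower (12.8%, against 2.95% of all regions) and 1 higher. The lower calls were spread over the position classes, with 63 of 179 tested regions at promoters, 19 of 43 in exons, 56 of 188 in introns and 41 of 136 in distal intergenic sequence. The share of all tested regions called lower is not given by class, so the order of the classes is a description.

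**Figure D4:**
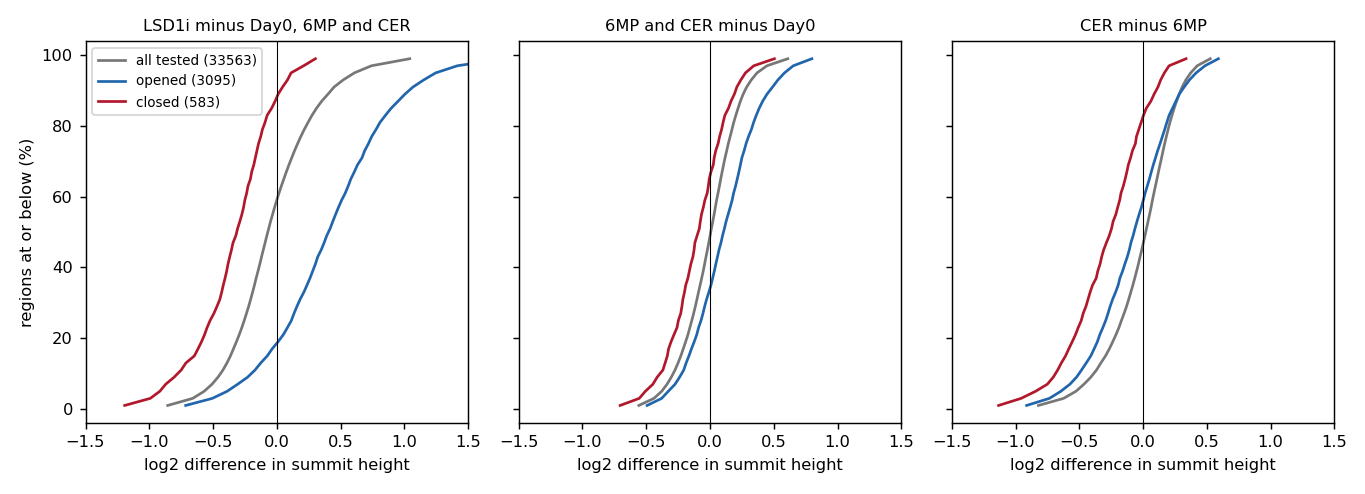
Cumulative share of regions, in percent, by log2 difference in summit height for the 3 comparisons of libraries that did not choose the regions, over all tested (33563), opened (3095) and closed (583) regions, drawn from the percentile 1 to the percentile 99. The closed regions lie left of all regions in each panel, with medians of -0.32, -0.09 and -0.26.

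Among the 10 closed regions with the lowest folds in Combo, 3 had a peak in all 8 libraries, and all 3 were lower in LSD1i. The region over the promoter of Rnase11, a member of the ribonuclease A family, stood at 21.6 and 19.1 times background in Day0, 22.8 and 24.9 in Vehicle, 10.2 and 7.08 in LSD1i, 22.5 and 15.7 in 6MP, 15.3 and 16.3 in CER and 5.49 and 4.80 in Combo. LSD1i and Combo libraries lay below all others, and neither overlapped the other groups. The LSD1i difference was -1.10 ± 0.19 (SE, n = 2 LSD1i libraries; limma adjusted p = 2.95e-06). The distal region nearest the pseudogene Gm12210 (chr11:52502553-52503421) had heights of 15.3 and 15.8 in Day0, 16.6 and 19.3 in Vehicle, 6.27 and 5.09 in LSD1i, 17.2 and 18.9 in 6MP, 12.7 and 14.6 in CER and 4.17 and 4.06 in Combo. Its LSD1i difference was -1.47 ± 0.21 (limma adjusted p = 2.07e-08), and its 2 CER libraries were the lowest outside LSD1i and Combo. The region in exon 3 of 32 of Usp7, a deubiquitinase that stabilises MDM2, had heights of 14.3 and 14.1 in Day0, 15.7 and 17.7 in Vehicle, 8.36 and 6.19 in LSD1i, 16.0 and 16.3 in 6MP, 11.9 and 12.9 in CER and 4.17 and 4.25 in Combo. Its LSD1i difference was -0.98 ± 0.21 (limma adjusted p = 0.000205).

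The other 7 of the 10 lowest folds lacked a peak in at least 1 of the 8 libraries. The largest drop in the authors' deposited table, -2.20, was in exon 6 of 12 of Nrf1, a transcription factor of mitochondrial and housekeeping genes. A peak was called there in 3 libraries, at 4.78 and 8.66 times background in Vehicle and 6.41 in 6MP replicate 2. The Lhfpl2 promoter region, with a fold of -2.02 in the authors' deposited table, was at 10.6 and 13.7 in Day0, 11.2 and 9.52 in Vehicle, 4.18 in LSD1i replicate 1, 11.1 and 9.32 in 6MP and 7.42 and 9.53 in CER. It had no peak in LSD1i replicate 2 or in Combo. The region in the 3′ UTR of Mgme1, a mitochondrial DNA exonuclease, was called in 1 Day0 library (18.8), both Vehicle libraries (16.6 and 15.6), 1 LSD1i library (4.64), both 6MP libraries (12.7 and 12.8), 1 CER library (8.48) and no Combo library. Regions near Gm11919 and in the last intron of Rab31 were called in Vehicle alone, at heights of 9.52 or less. So were 2 of the promoter regions with the lowest folds, at Stab1, a scavenger receptor gene (6.15 and 4.11), and Ptpn4, a tyrosine phosphatase gene (4.33 and 6.28). The region nearest Apold1 had summits at 5.47 and 9.31 in Vehicle and 4.15 in Day0 replicate 2, and that in intron 1 of Adgrl2, an adhesion receptor gene, at 2.96 and 5.63 in Vehicle and 10.6 in 6MP replicate 1. The region 2.4 kb before Mir1943 was at 9.16 in Day0 replicate 1, 11.2 and 9.31 in Vehicle and 13.9 and 7.28 in 6MP.

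Among the regions with the most certain LSD1i differences, Combo was not always the lowest, which a choice by LSD1i values favours. In intron 2 of Bri3bp, which encodes a BRI3-binding protein, heights were 47.0 and 51.1 in Day0, 48.3 and 54.5 in Vehicle, 16.7 and 20.3 in LSD1i, 34.0 and 62.6 in 6MP, 51.7 and 47.3 in CER and 27.3 and 29.4 in Combo. LSD1i and Combo were the 2 lowest groups, and both LSD1i libraries were below both Combo libraries. The LSD1i difference was -1.39 ± 0.13 (limma adjusted p = 2.23e-15). In intron 1 of Wbp1l, heights were 16.2 and 20.3 in Day0, 13.9 and 22.9 in Vehicle, 5.49 and 6.41 in LSD1i, 22.5 and 23.6 in 6MP, 14.2 and 11.9 in CER and 9.09 and 10.2 in Combo. Here too LSD1i lay below Combo, and the difference was -1.57 ± 0.20 (limma adjusted p = 3.84e-10).

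At the 3′ UTR of Pias4, a SUMO ligase, LSD1i stood at 39.7 and 30.3 and Combo at 36.2 and 43.4, with 50.4 to 73.8 in the other 8 libraries. The LSD1i difference was -0.91 ± 0.13 (limma adjusted p = 6.91e-09). The promoter of Dnaja3, a mitochondrial co-chaperone, stood at 16.5 and 13.9 in LSD1i and 15.9 and 17.0 in Combo, against 28.3 to 36.9 elsewhere. The region upstream of Cdk18, a cyclin-dependent kinase, stood at 41.0 and 38.0 in LSD1i and 43.6 and 48.0 in Combo, against 58.9 to 79.2 elsewhere. In exon 13 of 17 of Cttn, which encodes the actin-binding protein cortactin, LSD1i was at 13.1 and 15.5 and Combo at 11.9 and 13.5. Intron 7 of 39 of Nav2 and the promoter of Mapt, the gene of the microtubule protein tau, were also among the 10 lowest p-values, with LSD1i differences of -1.21 ± 0.15 and -0.89 ± 0.13. In each of the regions named here for its p-value the 2 LSD1i libraries lay below every Day0, 6MP and CER library. The choice by that same comparison favours such a separation, so it is a description.

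The 3 closed regions called higher in LSD1i were all distal intergenic. The one nearest Ksr1, a scaffold of the MAP kinase cascade, was at 37.8 and 36.1 in Day0, 41.7 and 54.1 in Vehicle, 58.0 and 52.0 in LSD1i, 40.9 and 44.0 in 6MP, 29.2 and 38.5 in CER and 39.4 and 26.1 in Combo. Its LSD1i difference was 0.55 ± 0.12 (limma adjusted p = 0.000375), so LSD1i lay above the 3 other groups of the test while Combo overlapped them. Near Gm26562 the difference was 0.55 ± 0.14 (limma adjusted p = 0.00187). The LSD1i heights there, 40.2 and 39.6, overlapped those of 6MP (25.0 and 41.4). The region nearest Pold4, a small subunit of DNA polymerase delta, was at 15.5 and 14.5 in Day0, 28.7 and 37.2 in Vehicle, 22.7 and 24.1 in LSD1i, 23.7 and 17.5 in 6MP, 16.3 and 17.0 in CER and 14.4 and 11.1 in Combo. Its LSD1i difference was 0.44 ± 0.17 (limma adjusted p = 0.0468), and the LSD1i heights overlapped those of 6MP. Against Vehicle, which is high by the choice of regions, the authors' deposited table gave this region an LSD1i fold of -0.6. LSD1i was thus above the mean of Day0, 6MP and CER there and below Vehicle. This region was also listed with a log2 fold of 1.0 for Vehicle over Day0 in the authors' deposited table of that pair, so the drop in Combo was from a level that exceeded day 0.

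**Figure D5:**
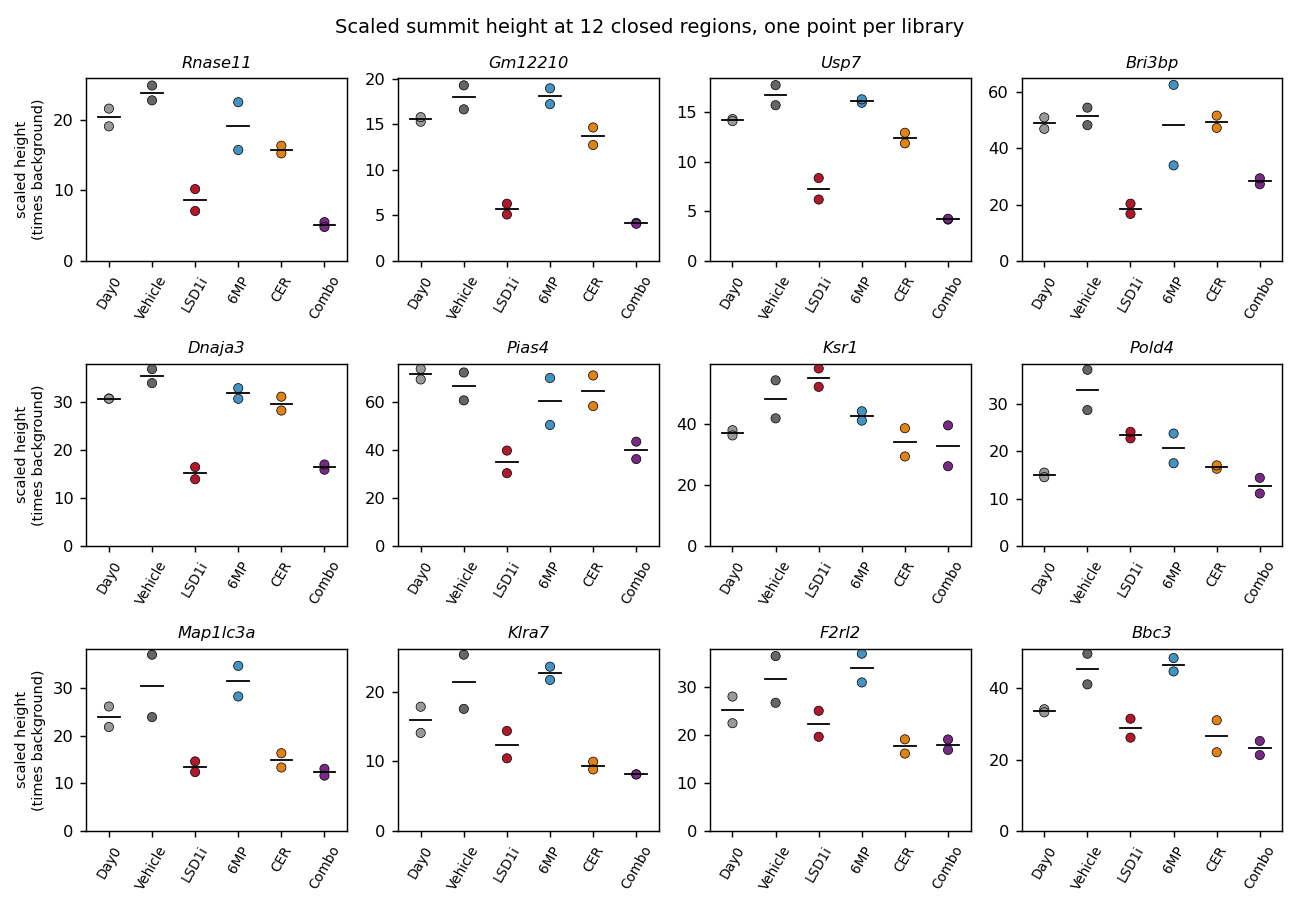
Scaled summit height, in multiples of background, at 12 closed regions named by their nearest gene, with a point for each library and a line at the mean of each group's 2 libraries. LSD1i and Combo are low in the panels from Rnase11 to Pias4, LSD1i is not below Day0 at Ksr1 and Pold4, and CER lies below 6MP in the bottom row.

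The other drugs were compared with day 0 in the same fit. The mean of 6MP and CER was lower than Day0 at 9 of the 583 regions (1.54%, against 0.492% of all regions) and higher at 1 (0.172%, against 0.778%), and the median difference was -0.09, against 0.01 over all regions. Drug and time cannot be told apart in this comparison, since Day0 was the only untreated group outside the choice of regions. The lower calls included a region in the lincRNA promoter Gm19656 (-0.80 ± 0.19, limma adjusted p = 0.0107), the promoter of Trim47, a ubiquitin ligase (-0.62 ± 0.16, limma adjusted p = 0.0198), and exon 84 of 87 of Zan (-0.79 ± 0.19, limma adjusted p = 0.0158), all named after their values were seen. The single higher call lay near Olfr1421-ps1 (0.66 ± 0.13, limma adjusted p = 0.00144). The count was unstable, with 0 lower without either Day0 library and 3 without CER replicate 2 (0.479%, against 0.101% of all regions). Without 6MP replicate 2 it was 21 (3.59%, against 1.97%), and without 6MP replicate 1 it was 51 (8.42%, against 3.77%). It was 0 with scaling by depth alone or when regions called in at least 6 of the 8 libraries were taken. With all 12 libraries in the fit it was 1 (0.179%, against 0.0719%). Taken alone against Day0, 6MP had 2 lower (0.343%, against 0.748% of all regions) and 6 higher (1.03%, against 1.28%). CER alone had 23 lower (3.95%, against 0.471% of all regions) and 1 higher (0.172%, against 0.301%). The names of both Day0 peak files end in a P, which no other library carries, so that letter and Day0 cannot be told apart.

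CER and 6MP, which share the time point, were therefore set against each other, a comparison added after the values were seen. CER was lower at 33 of the 583 regions (5.66%, against 1.24% of all regions). It was higher at 0 by limma, where 0.238% of all regions were higher. At an unadjusted limma p under 0.05, CER was higher at 4 of the 583, where 1893 of all 33563 regions were higher. The median difference was -0.26 over the closed regions, 0.02 over all and -0.07 over the opened ones, and 483 of the 583 were below zero (82.8%, against 46.7% of all regions). Scaled by depth alone, or with regions called in at least 6 of the 8 libraries, no closed region was lower. The count was 6 without CER replicate 1 (1.03%, against 0.14% of all regions), 64 without 6MP replicate 1 (10.6%, against 4.51%) and 100 without 6MP replicate 2 (17.1%, against 4.71%). It was 21 with all 12 libraries in the fit (3.76%, against 0.596%).

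The regions with the lowest p in this comparison were likewise named after their values were seen. The region upstream of Map1lc3a, which encodes the autophagy protein LC3A, was at 21.8 and 26.1 in Day0, 23.9 and 37.0 in Vehicle, 14.6 and 12.4 in LSD1i, 28.3 and 34.7 in 6MP, 13.3 and 16.3 in CER and 13.1 and 11.6 in Combo. The LSD1i, CER and Combo libraries all lay below the Day0, Vehicle and 6MP libraries. Its CER difference was -1.10 ± 0.20 (limma adjusted p = 0.000877) and its LSD1i difference -0.73 ± 0.16 (limma adjusted p = 0.000361). The region nearest Klra7, a receptor of natural killer cells, was at 14.1 and 17.8 in Day0, 17.5 and 25.3 in Vehicle, 10.4 and 14.4 in LSD1i, 21.7 and 23.6 in 6MP, 9.96 and 8.85 in CER and 8.14 and 8.13 in Combo. Its CER difference was -1.28 ± 0.24 (limma adjusted p = 0.000924), and its LSD1i difference of -0.29 ± 0.19 did not pass (limma adjusted p = 0.298). The mean that LSD1i was compared with includes CER, which was itself low there. Against Vehicle, which is high by the choice of regions, the authors' deposited table gave an LSD1i fold of -1.02.

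The promoter of F2rl2, a protease-activated receptor, was at 28.0 and 22.4 in Day0, 26.7 and 36.4 in Vehicle, 19.6 and 25.0 in LSD1i, 36.9 and 30.9 in 6MP, 16.1 and 19.1 in CER and 16.9 and 19.0 in Combo. The CER and Combo libraries overlapped and lay below all others, and the CER difference was -0.96 ± 0.18 (limma adjusted p = 0.00131). A region in intron 6 of 8 of Sae1, a subunit of the SUMO-activating enzyme, carried the symbol of its neighbour Bbc3, which encodes the pro-apoptotic protein PUMA. It was at 34.1 and 33.2 in Day0, 41.0 and 49.6 in Vehicle, 26.1 and 31.4 in LSD1i, 44.6 and 48.4 in 6MP, 22.0 and 31.0 in CER and 25.2 and 21.2 in Combo, with a CER difference of -0.84 ± 0.16 (limma adjusted p = 0.00131). The promoter of Jade1, a subunit of a histone acetyltransferase complex, stood at 12.2 and 12.9 in Day0, 20.0 and 25.5 in Vehicle, 13.6 and 17.7 in LSD1i, 21.3 and 19.5 in 6MP, 8.69 and 9.19 in CER and 12.7 and 11.3 in Combo. There CER lay below Combo, with a CER difference of -1.20 ± 0.24 (limma adjusted p = 0.00204).

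Pooled over 19 lists of lineage, drug pathway and cell process genes, the listed genes held closed regions at close to the share of all genes. Of 229 genes in 19 lists, 10 held a closed region (4.37%) and 57 an opened one (24.9%), while 3.06% and 10.9% of 21896 protein-coding genes did. The 10 genes fell in 5 lists. They were 4 of 25 myeloid transcription factors, 2 of 16 purine metabolism genes and 2 of 30 progenitor and self-renewal genes. The others were 1 of 16 fatty acid and sterol metabolism genes and 1 of 6 megakaryocyte genes. These single lists rest on few genes, and at a background share of 3.06% a list of such length often holds none. Among mature neutrophil genes, 0 of 14 held a closed and 7 an opened region, and among monocyte and macrophage genes 0 of 15 and 10. The lists were drawn up with earlier results of these data known, so their direction is a description.

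Of 25 myeloid transcription factors, 4 held a closed region and 3 an opened one, where 3.06% and 10.9% of protein-coding genes did. These few genes are given without a test. The region 1.9 kb from the start of Irf8, a regulator of monocyte and dendritic cell fate, was at 12.9 and 12.9 in Day0, 10.7 and 14.7 in Vehicle, 9.14 and 11.1 in LSD1i, 14.3 and 11.4 in 6MP, 9.96 and 8.17 in CER and 5.30 and 6.65 in Combo. Combo was below every other library, and the LSD1i difference of -0.18 ± 0.22 did not pass (limma adjusted p = 0.607). The region upstream of Cebpb, a bZIP factor of granulocytes and macrophages, was at 57.5 and 48.1 in Day0, 50.6 and 47.8 in Vehicle, 52.0 and 49.8 in 6MP, 49.6 and 42.6 in CER, 32.5 in LSD1i replicate 2 and 27.6 and 34.0 in Combo, with no summit in LSD1i replicate 1. Intron 3 of Runx3 was at 39.4 and 42.0 in Vehicle and 26.5 and 24.0 in Combo, with 28.6 to 38.4 in the other 8 libraries and an LSD1i difference of -0.11 ± 0.13 (limma adjusted p = 0.611). The authors' deposited table of LSD1i against Vehicle, which shares the Vehicle libraries that chose the regions, gave -0.53 at Irf8 and -0.73 at Runx3. The distal region nearest Egr2, an early growth response factor, was at 8.22 and 7.89 in Day0, 6.83 and 6.93 in Vehicle and 3.98 and 4.06 in Combo.

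Of 30 progenitor and self-renewal genes, Erg and Cdk6 held a closed region and 9 held an opened one, Erg among them. The region in intron 2 of 10 of Erg, an ETS factor of stem cells, was at 27.5 and 20.8 in Day0, 33.7 and 25.1 in Vehicle and 18.8 and 26.8 in 6MP, and no peak was called in any LSD1i, CER or Combo library. The authors' deposited table gave a fold of -0.83 and a Combo level of 8.32, above the closed regions' median of 7.59, so the signal was lower and not absent. Only 2 closed regions had this pattern of calls. Intron 2 of 7 of Cdk6, a cyclin-dependent kinase that drives the start of the cell cycle, was at 17.1 and 18.7 in Day0, 22.6 and 24.5 in Vehicle, 13.1 and 13.0 in LSD1i, 18.4 and 18.1 in 6MP, 16.1 and 16.3 in CER and 10.6 and 13.5 in Combo. LSD1i overlapped Combo and lay below the rest, and its difference of -0.42 ± 0.18 did not pass (limma adjusted p = 0.0804). The Cdk6 region was listed with a log2 fold of 0.65 for Vehicle over Day0 in the authors' deposited table of that pair. Against Vehicle, which is high by the choice of regions, it was listed with an LSD1i fold of -0.88. Among megakaryocyte genes, the promoter of Itga2b, which encodes CD41, was at 34.9 and 27.9 in Vehicle and 21.2 and 16.4 in Combo, with 23.8 to 33.6 in the other libraries.

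The drug pathway genes held closed regions at weak peaks only, at 2 of 16 purine metabolism genes and 1 of 16 fatty acid and sterol metabolism genes. Tpmt encodes the methyltransferase that inactivates mercaptopurine, and the region 1.5 kb before its start was at 4.46 in Day0 replicate 1 and 3.65 and 2.81 in Vehicle, with no peak in the other 9 libraries. The region assigned to Nt5c2, a nucleotidase linked to thiopurine resistance, lay in intron 1 of its neighbour Cnnm2, at 6.81 in Day0 replicate 1, 5.01 and 6.71 in Vehicle, 3.32 in LSD1i replicate 2, 9.83 and 3.79 in 6MP, 3.18 in CER replicate 1 and 3.22 in Combo replicate 1. Intron 43 of 55 of Acaca, whose product supplies fatty acid synthase with malonyl-CoA, was called at 4.56 and 4.76 in Vehicle, 3.76 in LSD1i replicate 2 and 4.43 in CER replicate 2. None of these 3 regions was called in all 8 libraries of the test, so none has a p-value.

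Genes with several closed regions show how these varied within a gene, and differences between regions of 1 gene were not tested. More than 1 closed region was assigned to 79 symbols, and 145 of the 1031 symbols (14.1%) also had an opened region. Cyth4, an exchange factor of ARF proteins found mainly in blood cells, held 4 closed regions. The distal one downstream of its promoter (chr15:78623550-78625668) was at 107 and 94.6 in Day0, 109 and 107 in Vehicle, 70.3 and 66.1 in LSD1i, 87.2 and 111 in 6MP, 101 and 102 in CER and 68.7 and 69.3 in Combo. LSD1i and Combo overlapped there and lay below the other 8 libraries, and the LSD1i difference was -0.56 ± 0.14 (limma adjusted p = 0.00145). At the Cyth4 promoter the difference was -0.16 ± 0.13 (limma adjusted p = 0.424), with Combo at 25.6 and 20.3 and Vehicle at 35.5 and 36.1. Trio, a guanine nucleotide exchange factor, also held 4. The one 320 bases before its start was at 15.1 and 15.5 in LSD1i and 14.4 and 11.3 in Combo, against 19.8 to 31.0 in the others (-0.72 ± 0.15, limma adjusted p = 0.000161), and the one in exon 41 of 57 differed by -0.28 ± 0.20 (limma adjusted p = 0.35). Of the 3 regions of Ankrd11, a chromatin regulator, the promoter region was lower in LSD1i (-0.57 ± 0.14, limma adjusted p = 0.00106) and lower in CER than in 6MP (-0.67 ± 0.17, limma adjusted p = 0.0208), with heights of 18.5 and 22.8 in LSD1i, 20.8 and 26.9 in CER, 25.8 and 22.0 in Combo, 38.5 and 36.1 in 6MP, 34.1 and 30.7 in Day0 and 34.6 and 37.2 in Vehicle. In the authors' deposited table of LSD1i against Vehicle, which shares the Vehicle libraries that chose the regions, the folds ran from -1.12 to -0.69 for the 4 Cyth4 regions, from -1.05 to -0.51 for the 4 Trio regions and from -0.78 to -0.76 for the 3 Ankrd11 regions.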

How the data were processed

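ATAC-seq libraries of 6 groups, 2 replicates each, were analysed from 12 peak lists and the annotated comparison tables. Reads were handled on mm10 with MACS2 2.1.2, DiffBind, Bowtie2, Trimmomatic 0.38, Picard 2.18.26 and SAMtools 1.9, per the submitters' processing notes, and the settings are not given in the sources used here. The deposited peak lists give each summit's whole-number score, fold ratio over background, and −log10 of p-value and q-value, and every listed q-value was 0.01 or less. The deposited tables give log2 levels and folds, with p-values and FDR up to 0.05. Read totals are not given, so summit pileups were solved from the deposited fold ratio and −log10 p, and came out whole within 0.001 at 100% of summits. They ranged from 10 fragments upwards over depths of 2.44 to 4.55 fragments per position, so weak regions have the least precision.

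Pileup over depth was taken as log2 and centred on the median of regions called in all libraries of a fit. It was tested with limma 3.58.1 (R 4.3.3, trend) over all union regions, after a check on simulated data. An uncalled library has no value, so only regions called in all 8 libraries were tested. Named are the 10 lowest authors' folds and the 5 lowest at promoters, the 10 lowest p-values in LSD1i with up to 5 higher ones, list genes, the 3 genes with most regions and the 3 regions on each side of the sign threshold. Regions named outside this rule are marked in the text, and 1 of the 10 lowest p-values is not reported here. Each value of a named region is from summits inside it, and the test uses the union region. Members and lists were chosen with earlier results of these data known. Alternative scalings, filters, designs and left-out libraries were run, as were no-letter libraries alone, the leaving out of 6MP replicate 1 with CER replicate 2, narrow union regions and CER against 6MP, these 4 chosen after seeing the data. No genome was used, and sequences come from RefSeq promoter windows (GRCm38.p6).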

Additional observations from a re-analysis of the deposited data

Results flagged for a closer look

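CER and 6MP libraries differed at closed regions when tested against each other directly. Of 583 regions tested, 33 were lower in CER by limma (5.66%, against 1.24% of all regions). At 0 of them CER was higher (against 0.238%), although neither group entered the choice of the regions. CER replicate 2 and 6MP replicate 1 have the lowest summit signal of the 12 libraries (23.0 and 16.9 times background), and with both left out 67 of 659 were lower (10.2%, against 4.48% of all regions) and 1 higher. Without 6MP replicate 1 alone 64 were lower (10.6%, against 4.51%), and without CER replicate 2 alone 23 (3.67%, against 0.853%).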

How the results depend on the processing

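Counts of closed regions are given here as lower and higher. Scaling by depth alone gave 2 lower and 0 higher for LSD1i, 0 and 0 for 6MP and CER against Day0, and 0 lower for CER against 6MP. Taking regions called in at least 6 of 8 libraries left 178 lower (22.2%, against 7.59% of all regions) and 1 higher for LSD1i. It left 0 and 0 against Day0, and 0 lower for CER against 6MP. A mean pileup of at least 50 gave 116 lower for LSD1i (28.6%, against 11.8%). With the authors' FDR of 0.01 or less fewer regions were counted, and 109 were lower (38.4%, against 12.9%) and 1 higher for LSD1i. Against Day0, 4 were then lower (1.41%, against 0.492%) and 0 higher. With all 12 libraries in the fit, 1 was lower against Day0 and 21 for CER against 6MP. Against Day0, 6MP alone had 2 lower and 6 higher and CER alone 23 lower. The libraries without a letter gave 77 lower and 1 higher for LSD1i. Without 6MP replicate 1 and CER replicate 2 together, 50 were lower (7.59%, against 3.21% of all regions) and 7 higher (1.06%, against 5.73%) against Day0. For CER against 6MP, 67 were then lower and 1 higher. Leaving out 1 library at a time, LSD1i counts ran from 93 to 264 lower and 0 to 5 higher, those against Day0 from 0 to 51 and 0 to 8, and those of CER against 6MP from 6 to 100 and 0 to 4. The share over all regions moved too. The 93 were 15.9% (against 3.76% of all regions), the 264 were 43.6% (against 26.2%) and the 51 were 8.42% (against 3.77%). The lowest and highest counts came without LSD1i replicate 2 and 6MP replicate 1 for LSD1i, without a Day0 library and 6MP replicate 1 against Day0, and without CER replicate 1 and 6MP replicate 2 for CER against 6MP. The cause of these shifts was not tested, other than that fewer members were counted under the stricter FDR. Centring by intensity and narrow union regions kept every count within 1.5 times. The share at promoters was 27.3% for folds of -1 or less and 5.34% within 1 kb of a RefSeq start, by another definition.

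The replicate numbers are shared by the groups, but nothing says that they pair samples. Differences between replicates 1 and 2 correlated from -0.34 to 0.25 across pairs of groups. With a replicate block, 195 were lower (33.4%, against 12.5% of all regions) and 3 higher for LSD1i. The counts were 10 (1.72%, against 0.635%) and 1 against Day0, and 36 (6.17%, against 1.46%) and 0 for CER against 6MP. The block thus moved no count past 1.5 times.

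Called shares per library ran from 66.1% to 100% as reported, from 49.8% to 97.5% when at least 50% of the region had to be covered, and from 54.4% to 94.0% for peaks with −log10 q of at least 5. Peak heights cannot be read below the smallest called pileup, so 556 closed regions have no test.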
